A study of Mus musculus with 6 samples.

Results

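The genes described here mark macrophages, dendritic cells and the myeloid lineage they share. They were taken from the table of transcript levels by symbol, from a list of 50 genes, and each of the 50 was found as 1 of the 25416 rows. By role, 19 are genes of resident macrophages, 9 of dendritic cells and 22 of myeloid cells in general, a split made by what each gene is known for and not by its values. Intestine tissue of mice had been profiled by RNA-seq in 2 genotypes with 3 libraries each: HET, labelled as carrying the Rnf111 S254D substitution in the heterozygous state, and WT. Rnf111 (Arkadia) is a ubiquitin ligase of the TGF-beta pathway. The labels give no strain, sex, age, segment of the intestine or batch, and do not say that the libraries of a genotype came from separate animals. Levels are FPKM, fragment counts scaled by transcript length and by sequencing depth, so they can be compared between genes. Values of 3 libraries are given in the order of replicates 1 to 3.

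Macrophages are among the most numerous immune cells of the intestinal wall. They lie beneath the epithelium and in the muscle layer, take up dead cells and microbes, and depend on the growth factors Csf1 and Il34, which act through the receptor Csf1r. Many of them are replaced from blood monocytes. Conventional dendritic cells, which depend on Flt3 and its ligand Flt3l, carry antigen to lymph nodes and prime T cells, and TGF-beta is known to take part in the maturation of both lineages in the gut. The transcription factor PU.1, encoded by Spi1, sets up the program of most of the genes named here.

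The lowest FPKM values implied 19700000 to 22100000 fragments per HET library and 20600000 to 26200000 per WT library, a rough depth from genes with 1 annotated transcript. Rnf111 was at 4.25 to 4.83 FPKM in HET and 4.97 to 5.34 in WT and did not pass the test (limma adjusted p = 0.0609), which does not check the labels, since the substitution alters the protein. Intestinal epithelium was present in every library: its 8 marker genes summed to 4196 to 5162 FPKM in HET and 4521 to 4602 in WT, and of these 8 only Elf3, an epithelial transcription factor, passed the test (144, 123 and 122 in HET, against 99.1, 101 and 104 in WT). Pdx1, a transcription factor of the duodenum, was at 13.4, 3.92 and 0.579 FPKM across the 3 HET libraries, against 0.569, 0.941 and 0.417 in the 3 WT libraries. The haemoglobin gene Hba-a1 was at 126, 31.9 and 45.2 FPKM across the 3 HET libraries, against 14.8, 14.4 and 16.2 in the 3 WT libraries. Mitochondrial genes held 18.3, 16 and 15.4 percent of summed FPKM in HET, against 14.2, 15.5 and 13.9 percent in WT, and 7295 to 7460 rows were at 0 in HET libraries and 6295 to 6688 in WT libraries. The part of both in the differences below was not tested. HET replicate 1 was the highest library in Pdx1 and Hba-a1, which were picked after their values were seen.

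Most of these genes were lower in HET. Of the 36 that reached an FPKM of 1 in at least 3 libraries, 28 fell, 2 rose and 6 did not pass (limma on log2(FPKM + 1), Benjamini-Hochberg adjusted p under 0.05 over all 11870 genes tested). Over all tested genes 35.7% fell and 10.7% rose. The median log2 fold change of the 36 was -0.75, beside -0.12 for all tested genes. Of the 28 that fell, 11 had a log2 fold change below -1, as 3.7% of all tested genes did. In 30 of the 36 all HET values lay below all WT values and in 2 above them, beside 43.8% and 16.0% of all tested genes. The call balance over all genes moved with the scaling: 76.9% of called genes were lower with FPKM as deposited, 52.1% with median-ratio scaling and 42.4% with quantile normalization. For the members the counts were 28 lower and 2 higher, 28 and 2, and 25 and 2 under the same settings, and their median lay 0.62 to 0.67 below that of all tested genes on the log2 scale.

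By role, 10 of the 19 macrophage genes fell, 1 rose, 1 did not pass and 7 were too low to test. Of the 9 dendritic genes 2 fell, 1 rose, 1 did not pass and 5 were too low. Of the 22 shared genes 16 fell, 0 rose, 4 did not pass and 2 were too low. Summed over the role, the macrophage genes held 100.3 to 152.9 FPKM in HET and 200.4 to 206.9 in WT, and the shared genes 206.7 to 298.2 in HET and 372.4 to 388.1 in WT. The dendritic genes summed to 58.8 to 71.0 in HET and 60.0 to 63.4 in WT, and most of that sum was Irf8. Cd209a and Cd86 passed the filter on low values through the WT libraries alone. In tissue RNA, fewer cells of a type and less RNA per cell cannot be told apart.

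**Figure D1:**
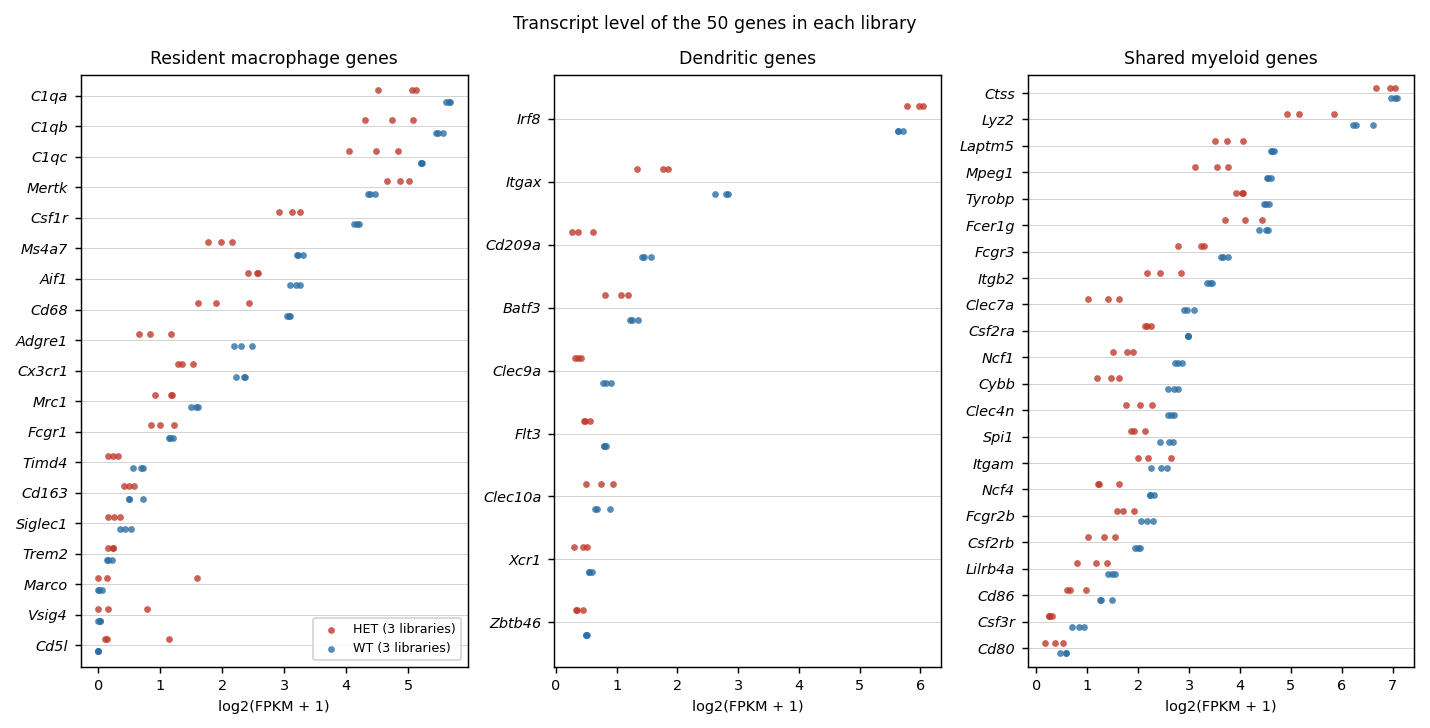
Transcript level of each of the 50 genes as log2(FPKM + 1), by role, with 1 point per library, HET (red) above WT (blue) on each line. Most rows show the 3 HET points left of the 3 WT points, while those of Mertk, Irf8 and the weakly expressed Cd5l lie to the right.

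The growth factor receptor of resident macrophages and both of its ligands fell. Csf1r, the receptor for Csf1 and Il34 on which these cells depend, was at 6.52, 8.51 and 7.7 FPKM across the 3 HET libraries, against 16.5, 17.1 and 17.4 in the 3 WT libraries. The groups did not overlap, and the fall was 2.24-fold (log2 fold change -1.07, SE 0.09, adjusted p = 0.000259). Its ligands were lower as well. Csf1 was at 1.25, 1.54 and 1.64 in HET, against 2.67, 3.27 and 2.7 in WT (adjusted p = 0.00168), and Il34 at 1.54, 2.25 and 2.06 in HET, against 3.96, 4.85 and 4.2 in WT (adjusted p = 0.00114). Cx3cr1, the receptor for the membrane-bound chemokine Cx3cl1, was at 1.45, 1.55 and 1.89 in HET, against 4.08, 4.18 and 3.67 in WT, a 2.44-fold fall (adjusted p = 0.000323). Its ligand, which the epithelium also makes, did not pass, at 26, 28.8 and 32.5 in HET, against 33.6, 33 and 35.6 in WT (adjusted p = 0.0691).

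Adgre1, which encodes the surface antigen F4/80, showed the largest fall of the tested macrophage genes. It was at 0.581, 0.79 and 1.25 FPKM across the 3 HET libraries, against 3.95, 3.58 and 4.59 in the 3 WT libraries, which is 4.63-fold lower (log2 fold change -1.44, SE 0.14, adjusted p = 0.000418). The highest HET value lay far below the lowest WT value. Ms4a7, a tetraspan membrane protein of tissue macrophages, was at 2.43, 3.44 and 2.94 in HET, against 8.91, 8.23 and 8.35 in WT (2.89-fold lower, adjusted p = 0.000206). Cd68, a lysosomal membrane glycoprotein, was at 2.05, 2.74 and 4.38 in HET, against 7.26, 7.53 and 7.45 in WT (2.43-fold lower, adjusted p = 0.00371). The HET libraries of Cd68 were widely spread, whereas the WT libraries were nearly equal. Aif1, the actin-binding protein Iba1, was at 4.35, 4.99 and 4.92 in HET, against 8.08, 8.59 and 7.56 in WT (1.7-fold lower, adjusted p = 0.000628). Mrc1, the mannose receptor CD206, was at 0.894, 1.25 and 1.28 in HET, against 2.06, 1.82 and 2.0 in WT (1.72-fold lower, adjusted p = 0.00526, not called with quantile normalization). Fcgr1, the high-affinity IgG receptor CD64, did not pass, at 0.801, 1.33 and 0.999 in HET, against 1.2, 1.31 and 1.23 in WT (log2 fold change -0.15, 95% confidence interval -0.38 to 0.09, adjusted p = 0.265).

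The 3 chains of complement C1q, which bind immune complexes and dying cells and which macrophages supply in most tissues, fell in step. C1qa was at 21.9, 32.2 and 34.1 FPKM across the 3 HET libraries, against 50.1, 49.3 and 47.9 in the 3 WT libraries, 1.67-fold lower (log2 fold change -0.75, SE 0.15, adjusted p = 0.00784). C1qb was at 18.8, 25.6 and 32.7 in HET, against 43.5, 46.4 and 42.7 in WT, 1.72-fold lower (adjusted p = 0.0102). C1qc was at 15.5, 21.4 and 27.6 in HET, against 35.9, 36.5 and 35.9 in WT, 1.68-fold lower (adjusted p = 0.013). The chains sit next to each other in the RefSeq gene order with 0 coding genes between them. Within a library they kept nearly the same proportion: the ratio of C1qb to C1qc was 1.21, 1.2 and 1.18 in HET, against 1.21, 1.27 and 1.19 in WT, and that of C1qa to C1qc was 1.41, 1.51 and 1.24 in HET, against 1.39, 1.35 and 1.33 in WT. The ratios of the genotypes overlapped, although the levels did not.

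Mertk, a receptor tyrosine kinase through which macrophages recognise and engulf dying cells, went the other way. It was at 24.2, 31.3 and 28.1 FPKM across the 3 HET libraries, against 19.5, 21.1 and 19.8 in the 3 WT libraries. All HET values lay above all WT values, 1.38-fold higher on average (log2 fold change 0.44, SE 0.09, adjusted p = 0.00847), as in 16.0% of all tested genes. The call held under each of the 16 alternatives tried. Its ratio to Csf1r was 3.72, 3.68 and 3.65 in HET, against 1.18, 1.23 and 1.14 in WT. Mertk, Axl and Tyro3 form the TAM receptor family, and the other two fell: Axl was at 1.5, 2.65 and 3.39 in HET, against 7.32, 7.2 and 7.11 in WT (2.87-fold lower, adjusted p = 0.00203) and Tyro3 at 1.21, 1.13 and 0.61 in HET, against 2.03, 2.07 and 1.96 in WT (2.05-fold lower, adjusted p = 0.00645). So did both bridging ligands that link the receptors to phosphatidylserine. Gas6 was at 15.5, 14.7 and 13.2 in HET, against 21, 19.4 and 24.3 in WT (adjusted p = 0.00426) and Pros1, protein S, at 4.09, 7.29 and 5.98 in HET, against 11.3, 13 and 10.8 in WT (adjusted p = 0.00493). Epithelial cells can express Mertk too, and which cells held these transcripts was not tested. Tyro3 was named after its values were seen.

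**Figure D2:**
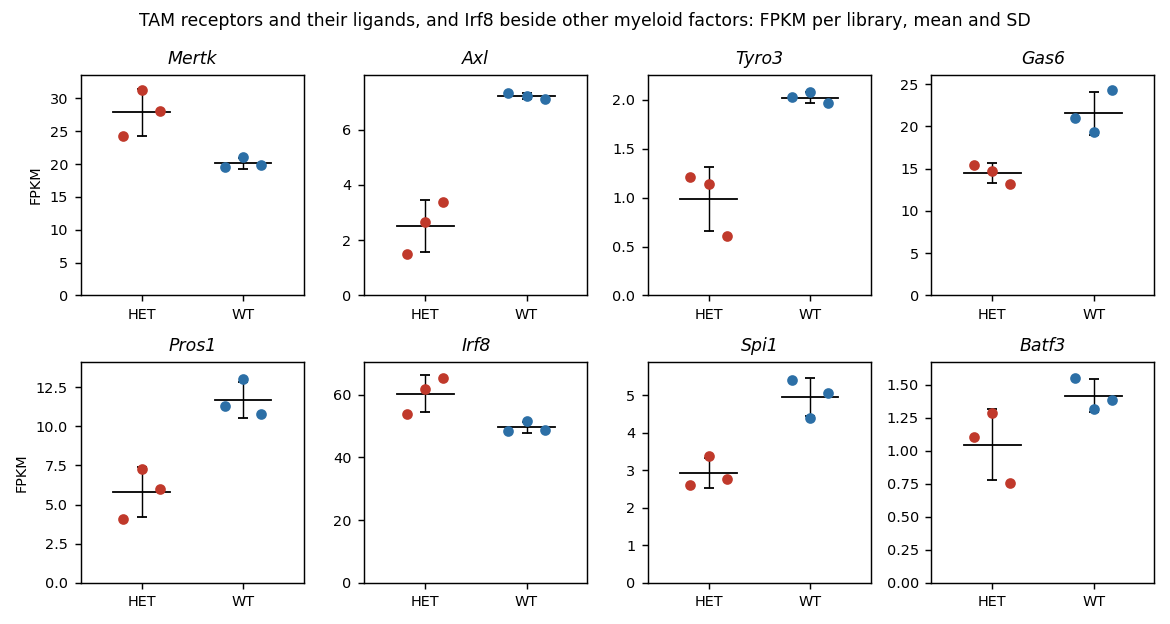
FPKM of 8 genes in each library, with HET (red) left of WT (blue), replicates 1 to 3 from left to right within a genotype, and bars for the mean and SD of 3 libraries. Mertk and Irf8 are higher in HET, while Axl, Tyro3, Gas6, Pros1 and Spi1 are lower and Batf3 did not pass the test.

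The other 7 macrophage genes were too weakly expressed to test. Timd4, a phosphatidylserine receptor of long-lived resident macrophages, was at 0.111, 0.177 and 0.242 in HET, against 0.613, 0.466 and 0.64 in WT, with all HET values below all WT values. Among untested rows above 0 in some library, 31.2% showed that separation. Siglec1, the sialic acid-binding lectin CD169, was at 0.12, 0.195 and 0.277 in HET, against 0.439, 0.277 and 0.354 in WT, where the highest HET value nearly met the lowest WT value. Cd163, the haemoglobin scavenger receptor of tissue macrophages, was at 0.337, 0.412 and 0.483 in HET, against 0.405, 0.417 and 0.648 in WT, and the genotypes overlapped. Trem2, a lipid-sensing receptor, was at 0.181, 0.118 and 0.183 in HET, against 0.112, 0.103 and 0.168 in WT, again with overlap.

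Marco, Cd5l and Vsig4 were high in HET replicate 3 alone. Marco, a class A scavenger receptor, was at 0, 0.105 and 2.03 FPKM across the 3 HET libraries, against 0.0474, 0 and 0.0133 in the 3 WT libraries. Cd5l, a secreted scavenger receptor-like protein, was at 0.0734, 0.0992 and 1.2 in HET, against 0, 0 and 0 in WT. All HET values of Cd5l thus lay above all WT values, as in 2.79% of untested rows above 0 in some library. Vsig4, a complement receptor, was at 0, 0.12 and 0.731 in HET, against 0, 0.0151 and 0.0224 in WT. By the depth estimate the values in HET replicate 3 rest on about 77 fragments for Marco, 48 for Cd5l and 21 for Vsig4, against at most 4 in any other library. In mice these genes are best known from macrophages of the liver, spleen, lymph node and body cavities. Ranked by how far HET replicate 3 stood above every other library, among named rows with at least 0.5 FPKM there, Marco came 1st, Cd5l 3rd and Vsig4 10th. Among the leading genes of the same ranking was Cxcl13, the chemokine of B cell follicles, at 1.11, 1.03 and 6.28 in HET, against 0.811, 0.838 and 1.02 in WT. Others were Saa3, an acute phase protein, at 1.39, 1.34 and 8.56 in HET, against 0.856, 0.693 and 0.317 in WT, and Arg1, arginase, at 0.494, 0.493 and 2.48 in HET, against 0.369, 0.329 and 0.234 in WT. The B cell marker Ms4a1 was at 0.17, 0.166 and 0.876 in HET, against 0.171, 0.167 and 0.297 in WT, while the sum of the 10 B cell genes listed was 13.7 to 17.3 FPKM in HET and 24.4 to 25.4 in WT. Clec4f, a marker of Kupffer cells in the mouse liver, was near the floor throughout, at 0.0176, 0.0157 and 0 in HET, against 0, 0 and 0 in WT. Spic, a factor of splenic red pulp macrophages, was at 0.0515, 0 and 0.221 in HET, against 0.0536, 0.106 and 0.0712 in WT. The part of other tissue in these values was not tested. Without that library, the highest HET values were 0.105 FPKM for Marco, 0.0992 for Cd5l and 0.12 for Vsig4.

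**Figure D3:**
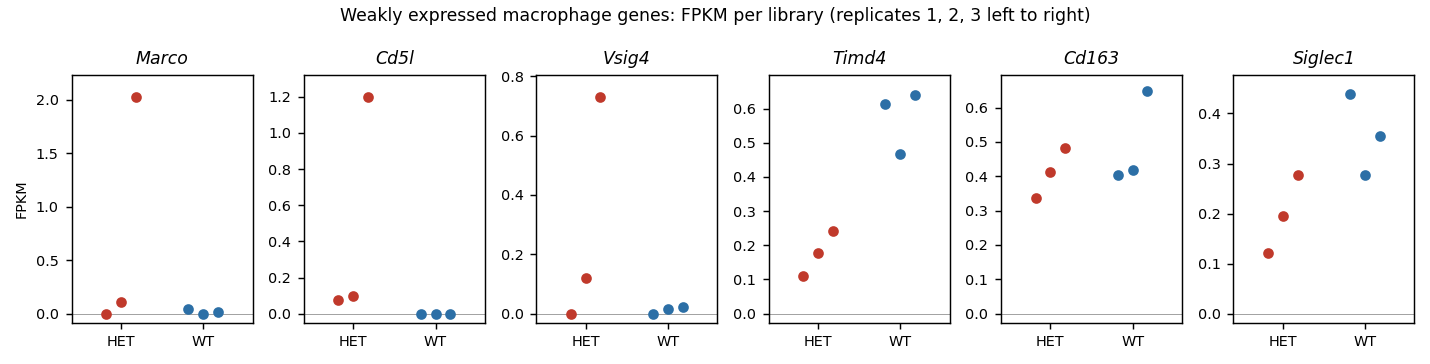
FPKM of 6 macrophage genes below the test's filter, with HET (red) left of WT (blue) and 1 point per library. Marco, Cd5l and Vsig4 are at 2.03, 1.2 and 0.731 in HET replicate 3 and near 0 elsewhere, and Timd4 is lower in each HET library than in any WT library.

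Of the 9 dendritic cell genes 5 were too low to test, while Irf8 was among the most abundant of the 50. Cd209a, a C-type lectin of monocyte-derived and conventional type 2 dendritic cells, was at 0.53, 0.292 and 0.196 FPKM across the 3 HET libraries, against 1.74, 1.66 and 1.97 in the 3 WT libraries, 5.26-fold lower (log2 fold change -1.06, SE 0.10, adjusted p = 0.000429). It passed the filter through the WT libraries alone (limma adjusted p = 0.00153 without the filter). Itgax, the integrin CD11c that gut macrophages also carry, was at 1.51, 2.38 and 2.59 FPKM across the 3 HET libraries, against 5.17, 5.96 and 6.12 in the 3 WT libraries, 2.66-fold lower (log2 fold change -1.11, SE 0.14, adjusted p = 0.00105). In neither gene did the genotypes overlap. Clec9a, Xcr1 and Batf3 mark the cross-presenting type 1 dendritic cell. Clec9a, a receptor for exposed actin of dead cells, was at 0.337, 0.289 and 0.236 in HET, against 0.778, 0.715 and 0.883 in WT. Xcr1, the receptor for the chemokine Xcl1, was at 0.367, 0.424 and 0.223 in HET, against 0.515, 0.453 and 0.451 in WT. Batf3, a factor this lineage needs, did not pass, at 1.11, 1.29 and 0.755 in HET, against 1.56, 1.32 and 1.39 in WT (adjusted p = 0.0963). In each of these 3 genes all HET values lay below all WT values. The same held for 43.8% of tested genes and 31.2% of untested rows above 0 in some library. Without the filter on low values Clec9a passed (limma adjusted p = 0.00225), while Xcr1 (0.143) and Batf3 (0.135) did not.

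Flt3, the growth factor receptor of conventional dendritic cells, was at 0.468, 0.369 and 0.397 in HET, against 0.772, 0.728 and 0.734 in WT, and passed without the filter (limma adjusted p = 0.00463). Its ligand Flt3l fell, at 1.5, 1.37 and 1.35 in HET, against 4.17, 6.02 and 4.5 in WT (3.48-fold lower, adjusted p = 0.00033). Zbtb46, a transcription factor restricted among immune cells to conventional dendritic cells, was at 0.256, 0.275 and 0.367 in HET, against 0.408, 0.427 and 0.402 in WT (adjusted p = 0.0767 without the filter). Clec10a, a galactose-binding lectin, overlapped between genotypes, at 0.416, 0.665 and 0.921 in HET, against 0.595, 0.564 and 0.86 in WT. Its close relative Mgl2 was at 0.651, 0.745 and 0.879 in HET, against 2.92, 2.12 and 3.11 in WT (adjusted p = 0.00058), and it passed the filter through the WT libraries alone (adjusted p = 0.00219 without the filter). How fragments were counted is not known from the labels, and their split between these near-identical lectins is uncertain.

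Irf8, a transcription factor of monocytes and type 1 dendritic cells, rose. It was at 53.8, 61.8 and 65.3 FPKM across the 3 HET libraries, against 48.5, 51.6 and 48.7 in the 3 WT libraries, 1.22-fold higher (log2 fold change 0.27, SE 0.08, adjusted p = 0.03). The groups did not overlap, but the call was lost on leaving out any 1 library except HET replicate 1, with adjusted p from 0.056 to 0.097. Its ratio to Spi1, both per length, was 20.6, 18.3 and 23.6 in HET, against 8.98, 11.7 and 9.65 in WT. B cells also express Irf8, and the 10 B cell genes listed summed to 13.7 to 17.3 FPKM in HET and 24.4 to 25.4 in WT. Which cells of the tissue held the Irf8 transcripts, the epithelium included, was not tested.

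Both tested growth factor receptor genes of the shared myeloid group fell. Csf2ra, the ligand-binding chain for GM-CSF, was at 3.42, 3.77 and 3.52 FPKM across the 3 HET libraries, against 6.87, 6.93 and 6.94 in the 3 WT libraries, 1.94-fold lower (log2 fold change -0.79, SE 0.06, adjusted p = 0.000156). The WT libraries were nearly equal in this gene. Csf2rb, the signalling chain shared by the receptors for GM-CSF, IL-3 and IL-5, was at 1.02, 1.52 and 1.93 in HET, against 3.1, 2.81 and 3.01 in WT (1.99-fold lower, adjusted p = 0.00564). Its near-identical copy Csf2rb2 was at 0.608, 0.817 and 0.961 in HET, against 1.09, 1.31 and 1.42 in WT, and how fragments were split between the copies is uncertain. Csf3r, the G-CSF receptor of neutrophils and some monocytes, was untested at 0.184, 0.24 and 0.182 in HET, against 0.626, 0.78 and 0.922 in WT, and passed without the filter (limma adjusted p = 0.00273). The cytokine Csf2 itself was at 0.894, 0.455 and 0.41 in HET, against 1.2, 0.934 and 2.05 in WT. Spi1, the lineage factor PU.1, was at 2.62, 3.37 and 2.76 FPKM across the 3 HET libraries, against 5.4, 4.4 and 5.05 in the 3 WT libraries, 1.7-fold lower (limma adjusted p = 0.00286).

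Several of the shared genes encode lectins, Fc receptors and adaptors tied to signalling through the tyrosine motif called ITAM. Clec7a, the beta-glucan receptor Dectin-1, had the largest fall of the 36 tested genes on the log2(FPKM + 1) scale. It was at 1.03, 1.65 and 2.09 FPKM across the 3 HET libraries, against 6.79, 6.42 and 7.59 in the 3 WT libraries, 4.37-fold lower (log2 fold change -1.63, SE 0.15, adjusted p = 0.000343). Clec4n, the related receptor Dectin-2, was at 2.39, 3.83 and 3.1 in HET, against 5.22, 5.52 and 5.03 in WT, 1.69-fold lower (adjusted p = 0.00688). Tyrobp, the adaptor DAP12, was at 14.2, 15.7 and 15.4 FPKM across the 3 HET libraries, against 21.1, 21.8 and 22.7 in the 3 WT libraries, 1.45-fold lower (adjusted p = 0.000859). Fcer1g, the adaptor shared by Fc receptors and also present in mast cells, did not pass, at 12, 16.1 and 20.7 in HET, against 22.3, 22 and 19.6 in WT (log2 fold change -0.40, 95% confidence interval -0.81 to 0.01, adjusted p = 0.097). The 3 HET libraries of Fcer1g ran from well below to within the WT range, and the mast cell gene Fcer1a was at 1.62, 1.68 and 1.83 in HET, against 0.134, 0.0402 and 0.111 in WT. The part of mast cells in the level of Fcer1g was not tested.

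Fcgr3, an activating IgG receptor, was at 5.85, 8.78 and 8.38 in HET, against 12.5, 11.7 and 11.3 in WT (1.55-fold lower, adjusted p = 0.0117). Fcgr2b, the inhibitory IgG receptor, was at 2.25, 2.0 and 2.76 in HET, against 3.18, 3.88 and 3.53 in WT (1.51-fold lower, adjusted p = 0.0111, not called with quantile normalization). The outer domains of these receptors are closely similar, so the split of fragments between them is uncertain. Lilrb4a, an inhibitory receptor, did not pass, at 0.746, 1.24 and 1.6 in HET, against 1.92, 1.65 and 1.81 in WT (adjusted p = 0.0716). Of 18 genes of ITAM and integrin signalling, inhibitory ones included, 17 were tested, 16 fell and 1 rose. Over all tested genes 35.7% were lower and 10.7% higher. The kinase gene that rose, Lyn, was at 20.5, 20.7 and 21.3 in HET, against 18.1, 17.6 and 18.8 in WT (adjusted p = 0.0229). Among the falls with the largest statistic were those of the lipid kinase subunits Pik3cg (3.06-fold) and Pik3cd (2.35-fold). Of the 16 that fell 3 passed the filter through the WT libraries alone, Pik3cg among them (adjusted p = 0.00107 without the filter).

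All 3 member genes of the phagocyte NADPH oxidase, which makes superoxide in the phagosome, fell. Cybb, the catalytic subunit gp91phox, was at 1.27, 1.78 and 2.07 FPKM across the 3 HET libraries, against 5.04, 5.48 and 5.89 in the 3 WT libraries, 3.2-fold lower (log2 fold change -1.27, SE 0.12, adjusted p = 0.000357). Ncf1, the organiser p47phox, was at 1.83, 2.44 and 2.7 FPKM across the 3 HET libraries, against 5.85, 5.56 and 6.26 in the 3 WT libraries, 2.53-fold lower (adjusted p = 0.000475). Ncf4, the p40phox subunit, was at 2.1, 1.35 and 1.3 in HET, against 3.95, 3.73 and 3.7 in WT, 2.39-fold lower (adjusted p = 0.00124). In each of these genes all HET values lay below all WT values, as in 43.8% of all tested genes. Of 4 partner genes 3 fell, among them the GTPase Rac2 (1.63-fold, adjusted p = 0.000506) and the proton channel Hvcn1 (2.12-fold, adjusted p = 0.00113). Cyba, the membrane partner p22phox that epithelial oxidases use as well, did not pass, at 74.9, 62 and 55.1 in HET, against 56.7, 55.7 and 60.7 in WT (adjusted p = 0.345).

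The beta-2 integrins divided. Itgb2, the common beta chain CD18, was at 3.51, 4.41 and 6.13 in HET, against 9.25, 9.58 and 9.99 in WT, 2.05-fold lower (adjusted p = 0.00331). Itgam, the alpha chain CD11b, overlapped between genotypes, at 3.01, 3.6 and 5.28 in HET, against 4.46, 3.75 and 4.91 in WT (log2 fold change -0.13, 95% confidence interval -0.53 to 0.26, adjusted p = 0.54). The gene next to it in the RefSeq order is Itgax, and the ratio of Itgax to Itgam was 0.503, 0.66 and 0.49 in HET, against 1.16, 1.59 and 1.25 in WT. The direction of Itgam turned without HET replicate 1 (log2 fold change 0.01) and with quantile normalization (0.08).

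Among lysosomal and effector proteins, Mpeg1, the pore-forming perforin-2 of phagocytes, was at 7.65, 10.7 and 12.5 FPKM across the 3 HET libraries, against 22.1, 22.4 and 23.3 in the 3 WT libraries, 2.2-fold lower (log2 fold change -1.09, SE 0.15, adjusted p = 0.00157). Laptm5, a lysosomal membrane protein of haematopoietic cells, was at 10.5, 12.5 and 15.8 in HET, against 23.4, 23.8 and 24.3 in WT (1.85-fold lower, adjusted p = 0.00222). Lyz2, the lysozyme of macrophages, was at 29.2, 34.8 and 56.7 in HET, against 76.4, 73.4 and 96.4 in WT (2.04-fold lower, adjusted p = 0.0103). Its near-identical relative Lyz1, made by Paneth cells, was at 33.1, 82.9 and 292 in HET, against 1877, 998 and 2562 in WT, and how fragments were split between the copies is uncertain. The ratio of Lyz2 to Lyz1 was 0.882, 0.42 and 0.194 in HET, against 0.0407, 0.0735 and 0.0376 in WT, and was not constant. Ctss, the cathepsin that trims the invariant chain, was the most abundant of the 50 genes and did not pass, at 101, 122 and 132 in HET, against 132, 135 and 124 in WT (log2 fold change -0.14, 95% confidence interval -0.39 to 0.10, adjusted p = 0.28). Of the costimulatory ligands, Cd86 was at 0.581, 0.511 and 0.977 in HET, against 1.4, 1.82 and 1.38 in WT (adjusted p = 0.00773, not called with quantile normalization), and Cd80, untested, at 0.127, 0.284 and 0.44 in HET, against 0.382, 0.499 and 0.491 in WT with overlap. Their receptor on T cells, Cd28, was at 0.318, 0.341 and 0.439 in HET, against 1.4, 1.31 and 1.27 in WT (3.62-fold lower, adjusted p = 0.000281). Cd86 and Cd28 passed the filter through the WT libraries alone (limma adjusted p = 0.0159 and 0.000758 without the filter).

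**Figure D4:**
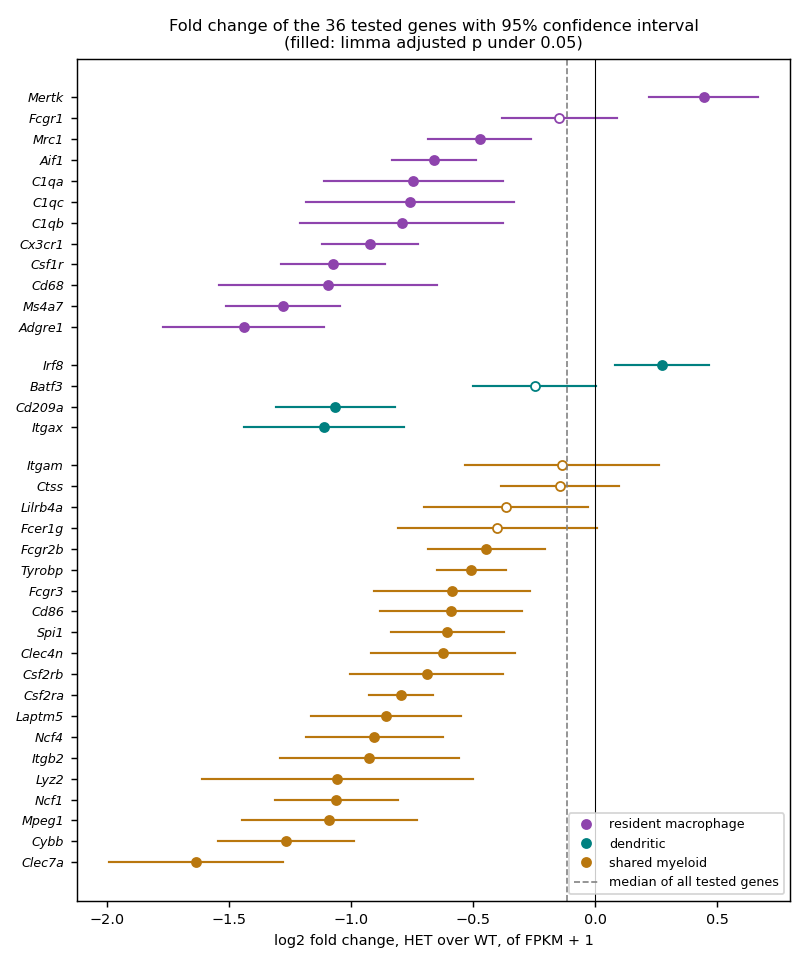
Log2 fold change, HET over WT, of FPKM + 1 for the 36 tested genes by role, with 95% confidence intervals from limma. Filled points passed the test: 28 lie below 0 and 2, Mertk and Irf8, above it, and the dashed line marks the median of all tested genes at -0.12.

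The HET libraries differed more among themselves in these genes than the WT libraries did. The median coefficient of variation of the 36 tested members was 23.8% in HET and 5.0% in WT, beside 8.99% in HET and 5.34% in WT over all tested genes. HET replicate 1 was the lowest of the HET libraries in 31 of the 36, as in 36.6% of all tested genes, and HET replicate 3 was the highest in 23, as in 25.5%. Summed over the 50 genes, HET replicate 1 held 365.8 FPKM, HET replicate 2 456.4 and HET replicate 3 522.1, against 635.9 to 650.0 in the WT libraries. In WT each library was the lowest in 10 to 14 of the 36. Without HET replicate 1 the members' median log2 fold change was -0.57, and the counts were again 28 lower and 2 higher. Pdx1 and the share of FPKM from mitochondrial genes were highest in HET replicate 1, as given above, and their part in this spread was not tested.

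Leukocyte genes as a whole were lower in HET, so the members were also set against Ptprc, the CD45 antigen of nearly all leukocytes. Ptprc was at 3.84, 5.39 and 6.04 FPKM across the 3 HET libraries, against 14.1, 14.9 and 14.4 in the 3 WT libraries, 2.85-fold lower (limma adjusted p = 0.000425). On the log2(FPKM + 1) scale it fell the most of the 18 leukocyte genes listed (-1.36, list median -0.90), so dividing by it lifts most genes. Expressed per Ptprc in the same library, 25 of the 36 tested members were higher in every HET library than in any WT library, where 90.6% of all tested genes were. So were 13 of the 18 leukocyte genes, so these ratios do not show a rise of the members relative to leukocytes. Adgre1, Clec7a and Cybb were lower in every HET library, as 1.6% of all tested genes were. Adgre1 per Ptprc was 0.151, 0.147 and 0.206 in HET, against 0.28, 0.239 and 0.318 in WT. Csf1r per Ptprc was 1.7, 1.58 and 1.27 in HET, against 1.17, 1.14 and 1.21 in WT. This scaling was chosen after seeing the data and carries no test.

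Other lists of the lineage moved mostly in the same direction. The shares to set beside the counts here and in the next paragraphs are 35.7% lower and 10.7% higher over all tested genes. Of 28 further macrophage genes 19 fell, 0 rose, 6 did not pass and 3 were too low. The falls with the largest statistic were those of the inhibitory receptor Pilra (2.83-fold), Cd4 (2.7-fold), which resident gut macrophages share with T cells, and Hpgds (2.92-fold), a prostaglandin D synthase. Of the 19, 6 passed the filter through the WT libraries alone, Pilra and Hpgds among them. Of 20 further dendritic genes 12 fell, 1 rose, 1 did not pass and 6 were too low. Itgae, the integrin CD103 that intraepithelial T cells also carry, Mgl2 and Ppt1, a lysosomal thioesterase, led the falls (2.47-fold, 3.58-fold and 1.52-fold), and 4 of the 12 passed the filter through the WT libraries alone. H2-DMb2, a chain of the peptide exchange factor of MHC class II, rose, at 4.76, 5.2 and 5.94 in HET, against 4.02, 4.51 and 3.96 in WT (adjusted p = 0.0313). Of 15 ligands and other binding partners of the proteins named above 8 fell, 0 rose, 2 did not pass and 5 were too low. Cd28, Flt3l and the integrin ligand Icam2 (2.38-fold) led the falls. Of these 8, 1 (Cd28) passed the filter through the WT libraries alone. Il3 was listed at 0 in every library.

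Of 15 transcription factors of myeloid cells 8 fell, 1 rose, 5 did not pass and 1 was too low. Their median log2 fold change was -0.34, beside -0.12 for all tested genes. Irf4 (3.29-fold), which plasma cells also express, Runx1 (3.77-fold) and Irf5 (1.61-fold) led the falls, and 2 of the 8, Runx1 and Nr4a1, passed the filter through the WT libraries alone. Cebpb, a factor that epithelial cells also express, rose, at 21.4, 19.2 and 18.2 in HET, against 14.6, 15.2 and 15.4 in WT (adjusted p = 0.00652). Of 8 plasmacytoid dendritic genes 3 fell, 0 rose, 2 did not pass and 3 were too low. These 3, Klk1 (2.16-fold), Ly6d (1.52-fold) and Ccr9 (1.97-fold), are expressed by other cells of the gut as well. The defining lectin Siglech was at 0.0399, 0.0531 and 0.0271 in HET, against 0.534, 0.348 and 0.484 in WT.

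Among other blood cells, 3 of 10 monocyte genes could be tested. Treml4, which passed the filter through the WT libraries alone, fell (2.41-fold, limma adjusted p = 0.00109), and Ly6c2, which other cells share, rose, at 17.9, 17.9 and 13.6 in HET, against 11.9, 11.3 and 11.2 in WT (adjusted p = 0.0102). The monocyte homing receptor Ccr2 was at 0.412, 0.246 and 0.344 in HET, against 0.586, 0.796 and 0.622 in WT. Of 12 neutrophil genes only Lcn2, which the epithelium also makes, could be tested, and it rose, at 2.96, 4.79 and 3.61 in HET, against 2.51, 1.68 and 2.49 in WT (adjusted p = 0.0278). Ly6g was listed at 0 in every library, and the list summed to 5.67 to 6.7 FPKM in HET and 3.02 to 10.1 in WT. Of 6 eosinophil genes 1 fell, Siglecf (2.79-fold), which tuft cells express too, and 1 rose, Prg2, at 15.8, 13.4 and 6.93 in HET, against 3.74, 3.83 and 3.73 in WT (adjusted p = 0.00477). The granule gene Epx was listed at 0 throughout.

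All 18 genes shared by leukocytes fell, Ptprc among them. The falls with the largest statistic were those of Arhgap45 (2.28-fold), Itgb7 (2.48-fold) and Itgal (2.44-fold). The list summed to 96 to 117.3 FPKM in HET and 206.6 to 214.8 in WT. Of 10 T cell genes 9 fell, 0 rose and 1 did not pass (a sum of 34.9 to 43.5 FPKM in HET and 68.4 to 76.5 in WT). Of 10 B cell genes 3 fell, 0 rose, 1 did not pass and 6 were too low. All 6 plasma cell, all 8 fibroblast, all 6 smooth muscle and all 6 endothelial genes fell, and of 6 mast cell genes 4 rose, 1 fell and 1 was too low. Of the mast cell genes that rose 3 passed the filter through the HET libraries alone, and of the 3 B cell genes that fell 1 through the WT libraries alone. All list genes that passed through 1 genotype alone were called in the same direction without the filter. The median log2 fold change was -0.90 for the leukocyte list, -0.68 for T cells, -1.94 for fibroblasts and -0.01 for the epithelium. The leukocyte and stromal lists moved with the members, and their part in the members' fall was not tested.

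Promoter sequences, from 250 bases before to 50 after the annotated start, were found for 37 of the 50 genes in RefSeq (GRCm38.p6). PU.1 binds purine-rich sites around the letters GAGGAA, which were searched on both strands (TTCCTC on the other). They occurred in 20 of the 37 (54.1%), and in 31.3% of the 27025 genes of the table. Of the 18 matched genes that fell, 11 held a match (61.1%), of the 5 that did not pass 4 did (80%), of the 12 that were not tested 5 did (41.7%), and of the 2 that rose 0 did. A match is a run of letters and not a site of binding. The promoters below are those of 4 genes that fell and of Mertk and Irf8, which rose, in lower case with each match in capitals, and the regions are on GRCm38.p6, not on the build of the expression values. The 4 were picked by name and all hold a match, as did 11 of the 18 that fell and 4 of the 5 that did not pass. They are thus not a sample of the genes that fell. The promoters of C1qb and C1qc show neighbouring genes that moved in step, with matches that start 30 and 193 bases before the start site.
C1qb (chr4:136886151-136886450, minus strand): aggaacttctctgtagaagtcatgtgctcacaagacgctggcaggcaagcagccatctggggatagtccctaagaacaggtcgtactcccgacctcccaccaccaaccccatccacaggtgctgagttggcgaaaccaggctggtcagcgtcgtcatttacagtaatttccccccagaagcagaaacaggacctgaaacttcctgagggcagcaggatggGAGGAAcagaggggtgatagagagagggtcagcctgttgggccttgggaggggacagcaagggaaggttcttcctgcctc
C1qc (chr4:136892865-136893164, minus strand): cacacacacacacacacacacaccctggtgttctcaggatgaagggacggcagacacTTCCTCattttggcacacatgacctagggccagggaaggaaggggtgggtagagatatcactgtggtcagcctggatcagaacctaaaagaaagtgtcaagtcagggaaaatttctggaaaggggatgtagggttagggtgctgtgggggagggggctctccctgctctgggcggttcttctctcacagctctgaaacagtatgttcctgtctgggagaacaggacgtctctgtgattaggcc
Clec7a (chr6:129472730-129473029, minus strand): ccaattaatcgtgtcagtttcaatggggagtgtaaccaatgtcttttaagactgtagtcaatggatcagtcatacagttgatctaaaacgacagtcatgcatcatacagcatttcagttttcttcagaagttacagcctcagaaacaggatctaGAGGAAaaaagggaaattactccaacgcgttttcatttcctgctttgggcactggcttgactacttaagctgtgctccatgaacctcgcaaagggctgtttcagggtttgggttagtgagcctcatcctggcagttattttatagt
Cybb (chrX:9469275-9469574, minus strand): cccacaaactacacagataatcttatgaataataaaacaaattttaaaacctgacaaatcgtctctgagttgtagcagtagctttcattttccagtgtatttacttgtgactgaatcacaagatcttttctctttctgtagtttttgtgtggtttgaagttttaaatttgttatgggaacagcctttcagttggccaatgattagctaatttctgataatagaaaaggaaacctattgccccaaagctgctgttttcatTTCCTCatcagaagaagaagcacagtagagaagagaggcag
Mertk (chr2:128698665-128698964, plus strand): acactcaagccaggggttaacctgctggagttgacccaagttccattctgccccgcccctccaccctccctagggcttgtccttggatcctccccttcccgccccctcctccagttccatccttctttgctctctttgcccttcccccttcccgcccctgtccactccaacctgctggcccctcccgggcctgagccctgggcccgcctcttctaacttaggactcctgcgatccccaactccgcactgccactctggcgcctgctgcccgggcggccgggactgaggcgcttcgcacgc
Irf8 (chr8:120736108-120736407, plus strand): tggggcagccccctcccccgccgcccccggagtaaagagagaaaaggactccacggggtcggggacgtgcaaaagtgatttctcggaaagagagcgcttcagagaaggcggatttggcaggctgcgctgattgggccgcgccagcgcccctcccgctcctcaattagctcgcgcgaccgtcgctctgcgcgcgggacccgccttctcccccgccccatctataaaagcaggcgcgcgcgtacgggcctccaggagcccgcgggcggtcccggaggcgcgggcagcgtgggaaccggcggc
The match in Clec7a starts 96 bases before the start site, and that in Cybb lies in the first bases of the transcript. The promoters of Mertk and Irf8 hold none of these letters in this window, which says nothing of whether PU.1 acts on them.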

How the data were processed

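Libraries were made from bead-captured poly(A) RNA, per the labels' protocols. The authors deposited 1 table of FPKM with a column per library (25416 rows, of which 3380 are unnamed loci), and the submitters' processing notes name GRCm39 as the build. Aligner, counting tool, annotation and strandedness: not given in the sources used here. FPKM holds no counts, and fragments of overlapping or near-identical genes cannot be told apart.

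The 11870 rows that reached 1 FPKM in 3 or more libraries were fitted as log2(FPKM + 1) in limma 3.58.1 (R 4.3.3), with genotype as the only term and moderation by eBayes that follows the trend of variance with level. A call needs a Benjamini-Hochberg adjusted p under 0.05, and adjusted p-values in the text come from this limma fit unless another setting is named. The procedure was tested on simulated data. Folds are ratios of mean FPKM over 3 libraries per genotype, whereas the log2 scale with 1 added shrinks the change of low genes. P-values measure only the spread among these libraries, and that spread may be technical.

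The members and lists were chosen with earlier results of these data known. Values are given for up to 6 tested members of each role with the largest statistic, for each member that rose, did not pass or was untested but had a mean of at least 0.3 FPKM in a genotype, and, of the other lists, for each gene that rose and up to 3 that fell. Genes named beyond this rule were chosen after their values were seen. Some genes that the rule would name are not reported here. Alternatives were pseudocounts of 0.1 and 0.01, no filter, a mean FPKM of at least 5, 3 scalings, a replicate block, array weights, no trend and leaving out each library. Figures were drawn with matplotlib 3.10.9, and tables joined with pandas 2.3.3 under Python 3.11.15.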

Additional observations from a re-analysis of the deposited data

How the results depend on the processing

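Of the 36 tested members 25 of the 28 lower calls and 1 of the 2 higher calls kept direction and side of the threshold in every alternative that tested them. The number of members that fell was 28 to 30 on leaving out each library, and 25 to 32 under the other alternatives except a mean FPKM of at least 5, where 18 were tested and 14 fell. The number that rose was 1 to 2 on leaving out each library, Irf8 being the call lost. Over all genes, 3150 to 4409 fell and 754 to 1610 rose on leaving out each library. A mean FPKM of at least 5 gave 1853 lower genes of 7341 tested, median-ratio scaling gave 2731 higher, quantile normalization gave 2153 lower and 2929 higher, and array weights, whose fit stopped before convergence, gave 2090 higher. The cause was not tested. Direction turned, without a call, for Batf3 (log2 fold change 0.11), Fcgr1 (0.24) and Itgam (0.080) with quantile normalization, for Fcgr1 with array weights (0.0035) and for Itgam without HET replicate 1 (0.0068), the other libraries left out giving down to -0.32 for Itgam. Fcer1g and Lilrb4a passed without HET replicate 3 and with array weights. With the replicate number as a block 28 members fell and 2 rose, with 3915 genes lower and 1167 higher in all. Deviations of same-numbered libraries correlated at -0.03, 0.13 and 0.32, and not every library correlated best with its own number, so the numbers were not taken as pairs. The filter on FPKM left 14 members untested, of which 4 passed as lower and 0 as higher without it.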
